A study of Mus musculus with 12 samples.

Results

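The mesenchymal state genes are a group of 10 genes, *Vim*, *Cd44*, *Anxa1*, *Anxa2*, *Anxa3*, *Anxa5*, *S100a4*, *S100a6*, *S100a10* and *S100a11*, whose RNA was followed across 4 populations of cells sorted from mouse glioblastomas. They were chosen by name from genes known to mark mesenchymal-like glioma cells, and all 10 are among the 18180 genes with values. Each of 3 end-stage tumors (tumors 3, 4 and 5) gave PDGFRA+, PDGFRA-, GAL1+ and GAL1- cells, so there are 12 bulk RNAseq libraries with 3 per population. GAL1 is galectin-1, the product of *Lgals1*. All tumors share a genotype that includes human *EGFR* switched on by Cre, loss of *Cdkn2a* and a Cre-dependent luciferase reporter. A lentivirus carrying Cre, injected into the striatum, started the tumors, so the recombined cells are those it infected and their descendants. The background mixed 129S4, Balb/cJ, C57Bl/6J and FVBN/J, to which the study's methods add SJL, and the labels name no treatment. The results text of the study describes the sorted cells as CD45-EGFR+, while its account of the sort names antibodies to EGFR with either PDGFR or galectin-1. The methods describe adult mice of both sexes, and the labels give no age. The populations of a tumor come from the same animal, so the comparisons were made within tumors.

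Glioblastoma cells move between states, and a mesenchymal-like state is one of those described in human and mouse tumors. Its marker genes encode cytoskeletal and adhesion proteins and calcium-binding proteins of the membrane and cytoplasm. Vimentin (*Vim*) is an intermediate filament protein, CD44 is the receptor for hyaluronan, annexins bind membrane phospholipids when calcium rises, and S100 proteins are small calcium-binding partners of other proteins. S100A10 pairs with annexin A2, and S100A11 can pair with annexin A1. Many of these genes are also used by myeloid, endothelial and connective tissue cells.

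Levels are given as deposited, in log2 CPM (counts scaled to a common library size, made by the authors), and 3 values in a row always run from tumor 3 to tumor 4 to tumor 5. Libraries held between 9851175 and 24117541 reads, as recovered from the values. The GAL1- libraries were the deepest, at 24117541, 21728280 and 22742465 reads, and no other library exceeded 18522549. The fewest reads for any member in any library were 56.5, for *S100a4*, so no member was near the floor of 3 reads.

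The genes behind the sort were checked before the members. *Lgals1* stood at 7.95, 7.64 and 7.41 log2 CPM in GAL1+ cells and at 6.05, 6.28 and 6.81 in GAL1- cells, a difference of 1.29 (SE 0.22, adjusted p = 0.000967). *Pdgfra* stood at 10.81, 10.13 and 9.95 in PDGFRA+ cells and at 10.11, 8.62 and 7.36 in PDGFRA- cells. The groups overlapped, since tumor 3 of the PDGFRA- libraries lay above tumor 5 of the PDGFRA+ libraries. *Pdgfra* was higher in PDGFRA+ cells in 3 of 3 tumors, by 1.60 on average, but the adjusted p was 0.249. The mouse gene *Egfr* was lower in GAL1+ than in GAL1- cells (log2 fold change −2.10, adjusted p = 0.000461), and since the transgene is human, this value is not a direct reading of the sorted protein. *Ptprc*, which encodes CD45, stood at 8.21, 8.74 and 9.0 in GAL1+ cells and at 3.70, 5.18 and 4.94 in GAL1- cells. Its RNA was thus present in cells described as CD45-.

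Some libraries stood apart from the others of their population. The PDGFRA- library of tumor 5 had *Ptprc* at 8.66 and *Egfr* at 8.16, inside the GAL1+ range, and *Pdgfra* at 7.36. The PDGFRA- library of tumor 4 held the highest *Vim*, *Anxa1*, *S100a4*, *S100a6* and *S100a10* of the 12 libraries, and the GAL1- library of tumor 3 the lowest *Anxa1*. Counts of members called are also given without these libraries where they changed.

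The comparison of GAL1+ with GAL1- cells asks how cells sorted as bearing galectin-1 differ from those sorted as lacking it. In it, 6 of the 10 members were higher in GAL1+ cells (adjusted p under 0.05, limma) and none lower. Among all genes 28.9% were called higher and 29.3% lower. The 6 were *Anxa3*, *Anxa5*, *Anxa1*, *S100a11*, *Cd44* and *Anxa2*, and without the GAL1- library of tumor 3 there were 5, all but *Anxa1*, beside 4816 of all genes called higher. The median log2 fold change of the members was 1.27, beside −0.03 over all genes. *Vim*, *S100a4*, *S100a6* and *S100a10* did not pass the test, though under quantile normalization *Vim* was called lower. In bulk samples, fewer cells of a type and less RNA per cell cannot be told apart.

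**Figure D1:**
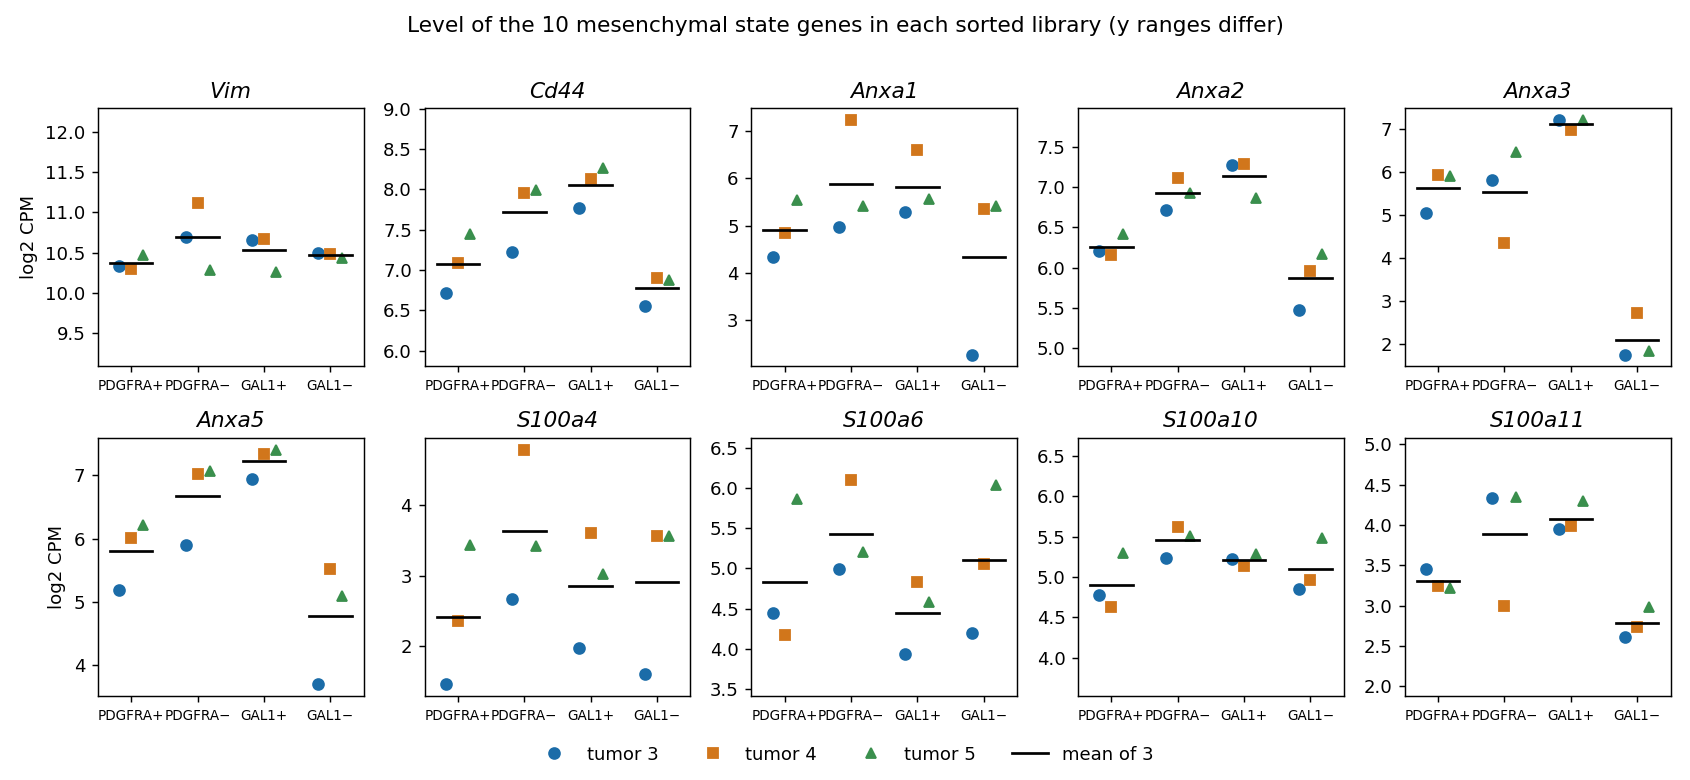
Level of each of the 10 genes (y axis, log2 CPM, ranges differ between panels) in PDGFRA+, PDGFRA-, GAL1+ and GAL1- cells (x axis). Each point is 1 library, its shape and color give the tumor, and the black line is the mean of 3 libraries. *Anxa3* lies between 6.97 and 7.21 in GAL1+ cells and between 1.76 and 2.72 in GAL1- cells, while *Vim* lies between 10.26 and 11.12 throughout.

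*Vim* was the most abundant member per length in every population. It stood at 10.66, 10.67 and 10.26 log2 CPM in GAL1+ cells, at 10.50, 10.48 and 10.43 in GAL1- cells, with 10.34, 10.30 and 10.47 in the PDGFRA+ and 10.69, 11.12 and 10.28 in the PDGFRA- libraries. All populations overlapped. The GAL1+ over GAL1- log2 fold change was 0.06 (95% interval −0.34 to 0.46, adjusted p = 0.797), and it turned to −0.72 (adjusted p = 0.0149, the lowest of 14 alternative settings, the highest being 0.989) under quantile normalization. None of the 6 comparisons called *Vim* with the deposited scaling.

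*Cd44* stood at 7.77, 8.13 and 8.26 in GAL1+ cells, at 6.55, 6.90 and 6.88 in GAL1- cells, with 6.71, 7.09 and 7.45 in the PDGFRA+ and 7.22, 7.95 and 7.99 in the PDGFRA- libraries. Every GAL1+ library was above every GAL1- and PDGFRA+ library. *Cd44* was 2.42-fold higher in GAL1+ than in GAL1- cells (log2 fold change 1.28, SE 0.12, adjusted p = 4.94e-05, higher in 3 of 3 tumors). The tumors gave close differences of 1.22, 1.23 and 1.38.

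Among the annexins, *Anxa3* differed by far more than the other members. It stood at 7.20, 6.97 and 7.21 in GAL1+ cells, at 1.76, 2.72 and 1.84 in GAL1- cells, with 5.05, 5.93 and 5.90 in the PDGFRA+ and 5.81, 4.35 and 6.46 in the PDGFRA- libraries. GAL1- cells lay below, and GAL1+ cells above, all other libraries. The difference between GAL1+ and GAL1- cells was 32.4-fold (log2 fold change 5.02, SE 0.47, adjusted p = 4.92e-05), with 5.44, 4.25 and 5.37 in the individual tumors.

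*Anxa5*, whose protein binds phosphatidylserine, stood at 6.95, 7.34 and 7.41 in GAL1+ cells, at 3.69, 5.52 and 5.09 in GAL1- cells, with 5.18, 6.01 and 6.21 in the PDGFRA+ and 5.90, 7.03 and 7.07 in the PDGFRA- libraries. GAL1+ and GAL1- libraries did not overlap, with a 5.51-fold difference (log2 fold change 2.46, SE 0.22, adjusted p = 4.63e-05). *Anxa2* stood at 7.27, 7.28 and 6.86 in GAL1+ cells, at 5.47, 5.96 and 6.17 in GAL1- cells, with 6.20, 6.16 and 6.42 in the PDGFRA+ and 6.71, 7.11 and 6.92 in the PDGFRA- libraries. It was 2.41-fold higher in GAL1+ than in GAL1- cells (log2 fold change 1.27, SE 0.19, adjusted p = 0.000343), again without overlap.

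*Anxa1* had the widest spread within a population, an SD of 1.79 in GAL1- cells. It stood at 5.30, 6.60 and 5.56 in GAL1+ cells, at 2.28, 5.35 and 5.41 in GAL1- cells, with 4.34, 4.84 and 5.55 in the PDGFRA+ and 4.98, 7.23 and 5.42 in the PDGFRA- libraries. GAL1+ and GAL1- cells overlapped, and the differences in the tumors were 3.01, 1.25 and 0.15. The log2 fold change of 1.47 (SE 0.55, adjusted p = 0.0432) became 0.77 (adjusted p = 0.2) without the GAL1- library of tumor 3. The call held in 6 of 14 alternative settings, whose adjusted p ran from 0.0233 to 0.359, and it was lost without the tumor block (adjusted p = 0.164), without tumor 3 (0.359) and without tumor 4 (0.067).

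The S100 genes split. *S100a11* stood at 3.95, 3.99 and 4.30 in GAL1+ cells, at 2.61, 2.73 and 2.98 in GAL1- cells, with 3.45, 3.24 and 3.22 in the PDGFRA+ and 4.33, 2.99 and 4.35 in the PDGFRA- libraries. It was 2.47-fold higher in GAL1+ than in GAL1- cells (log2 fold change 1.30, SE 0.28, adjusted p = 0.00314), by 1.34, 1.26 and 1.32 in the tumors. The PDGFRA- library of tumor 4 was the low one of its population.

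*S100a10*, which encodes the partner of annexin A2, stood at 5.22, 5.14 and 5.28 in GAL1+ cells, at 4.85, 4.96 and 5.48 in GAL1- cells, with 4.78, 4.63 and 5.30 in the PDGFRA+ and 5.23, 5.62 and 5.51 in the PDGFRA- libraries. GAL1+ and GAL1- cells overlapped, with a log2 fold change of 0.12 (95% interval −0.24 to 0.48, adjusted p = 0.549).

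*S100a4* stood at 1.97, 3.61 and 3.02 in GAL1+ cells, at 1.60, 3.56 and 3.57 in GAL1- cells, with 1.46, 2.35 and 3.43 in the PDGFRA+ and 2.67, 4.79 and 3.42 in the PDGFRA- libraries. Tumor 3 had the lowest value in every population, and the log2 fold change of GAL1+ over GAL1- cells was −0.05 (95% interval −0.89 to 0.79). *S100a6* stood at 3.94, 4.83 and 4.59 in GAL1+ cells, at 4.20, 5.06 and 6.04 in GAL1- cells, with 4.45, 4.17 and 5.86 in the PDGFRA+ and 4.99, 6.10 and 5.20 in the PDGFRA- libraries. With the deposited scaling it was the only member lower in GAL1+ than in GAL1- cells in 3 of 3 tumors (log2 fold change −0.65, SE 0.41), but the adjusted p was 0.204. Its PDGFRA- libraries all lay above its GAL1+ libraries, and the difference of 0.98 on the log2 scale did not pass the test (adjusted p = 0.118).

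**Figure D2:**
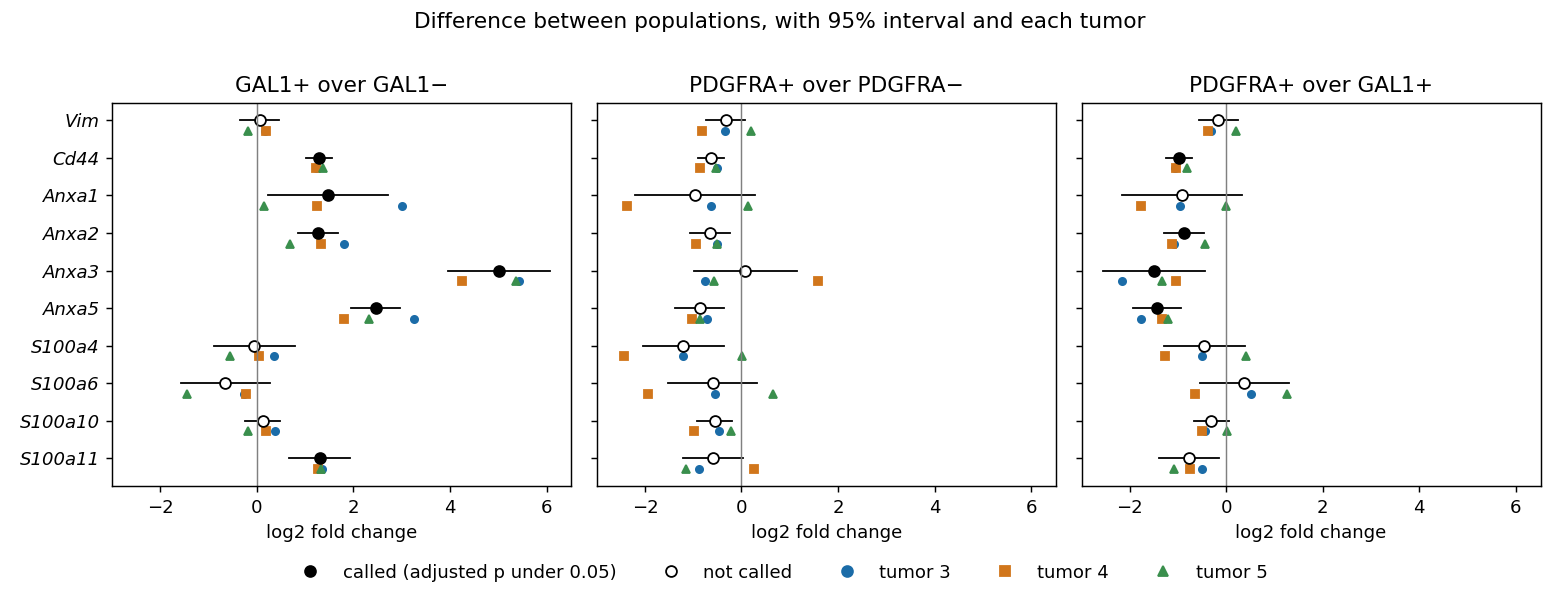
Log2 fold change (x axis) of each of the 10 genes (y axis) for GAL1+ over GAL1-, PDGFRA+ over PDGFRA- and PDGFRA+ over GAL1+ cells. Large circles are the limma estimates, filled where called, bars are 95% intervals, and small symbols are the differences in the 3 tumors. GAL1+ over GAL1- has 6 filled circles, PDGFRA+ over PDGFRA- has 0 and PDGFRA+ over GAL1+ has 4.

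In PDGFRA+ over PDGFRA- cells no member was called. The study, from its own analysis of differing genes, described PDGFRA- cells as enriched for inflammatory, immune and neutrophil chemotaxis genes. Of the 10, 0 were called by limma, beside 0% of all genes. At an unadjusted p under 0.05 there were 5 members, beside 2137 of all genes (11.8%), and the smallest adjusted p of a member was 0.21, for *Cd44*. These counts moved to 6 members and 3780 genes without the PDGFRA- library of tumor 4, to 8 members and 1136 genes without that of tumor 5, and to 8 members and 924 genes without all libraries of tumor 5. *Anxa3* was higher in PDGFRA+ cells on average, by 0.08, and the other 9 members were lower, with a median over the 10 of −0.62, beside −0.02 over all genes. *Anxa2* was the only member without overlap (log2 fold change −0.65, adjusted p = 0.266, lower in 3 of 3 tumors). *S100a4* had the most negative value, −1.21 (adjusted p = 0.3), of which tumor 4 gave −2.43 and tumor 5 gave 0.01. The sign of *Anxa3* rested on the PDGFRA- library of tumor 4, without which its log2 fold change was −0.64 (adjusted p = 0.245, with 0.245 to 0.996 over 14 alternative settings). Marker genes of some other cells were also lower on average in PDGFRA+ cells, with 8 of 8 mature oligodendrocyte genes (median −2.03), 10 of 11 monocyte and macrophage genes (median −1.03) and 11 of 12 pan-leukocyte genes (median −0.23), while 8 of 10 microglia genes were higher on average (median 0.20). None of these was called, and their part was not tested.

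PDGFRA+ and GAL1+ cells, a pairing for which the study listed differing genes by name, differed in 4 members. *Cd44*, *Anxa2*, *Anxa3* and *Anxa5* were lower in PDGFRA+ cells, beside 17.0% of all genes called lower and 20.9% called higher. Their log2 fold changes were −0.97, −0.88, −1.50 and −1.43, with adjusted p of 0.0014, 0.00689, 0.0327 and 0.00211, each lower in 3 of 3 tumors. *S100a11* was not called at −0.77 (adjusted p = 0.0542, without overlap), but it was called in 7 of 14 alternative settings, whose adjusted p ran from 0.00391 to 0.265. Of the members, *S100a6* was the only one with a positive value, 0.38 (adjusted p = 0.493), although quantile normalization turned *Vim* to 0.35 as well. The median of the members was −0.82, beside 0.01 over all genes. Without the PDGFRA- library of tumor 4, or that of tumor 5, 5 members were called lower, now with *S100a11* (adjusted p = 0.00391 and 0.0489), beside 3703 and 3493 of all genes called lower. Without tumor 3 there were 2, beside 297 of all genes called lower in place of 3097, and *Anxa2* and *Anxa3* did not pass (adjusted p = 0.0649 and 0.248, with ranges from 0.00158 to 0.0649 and from 0.00186 to 0.248 over 14 alternative settings). *Anxa2* also did not pass without tumor 4 (0.061), nor *Anxa3* without tumor 5 (0.0896) or without a trend (0.0508). Without the tumor block *Anxa5* did not pass (adjusted p = 0.0564, with 0.000863 as the lowest). Leukocyte genes moved with this comparison too: 11 of 12 pan-leukocyte genes (mean log2 fold change −1.57) and 11 of 11 monocyte and macrophage genes were called lower in PDGFRA+ cells. Called higher were 10 of 10 oligodendrocyte lineage genes (median 2.27), several of which the study picked out in this comparison, and 4 of 9 astrocyte genes. The part of these cell types was not tested.

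The other pairings shared these same libraries and are given for their own values. PDGFRA- cells had 5 members called higher than GAL1- cells, beside 16.2% of all genes, and these were *Cd44* (0.94), *Anxa2* (1.05), *Anxa3* (3.44), *Anxa5* (1.90) and *S100a11* (1.12). All 10 members were higher on average, with a median of 0.99 beside 0.02 over all genes. The sign turned for *Vim* under quantile normalization (−0.19) and for *S100a6* without tumor 4 (−0.02) or its PDGFRA- library (−0.06). *S100a11* did not pass without the tumor block (adjusted p = 0.0578), nor with only the libraries of these populations (0.0939), nor without tumor 3 (0.18), tumor 5 (0.216), the PDGFRA- library of tumor 5 (0.0991) or the GAL1- library of tumor 3 (0.0688), with 0.000288 as the lowest of 14 alternative settings. Leaving out either of these single libraries gave 4 members called higher, beside 1789 and 2558 of all genes in place of 2949. PDGFRA+ cells had 2 members called higher than GAL1- cells, *Anxa3* (3.52, adjusted p = 0.0024) and *Anxa5* (1.03, adjusted p = 0.0186), beside 8.26% of all genes. *Anxa5* was lost without the tumor block (adjusted p = 0.418), without all libraries of tumor 5 (0.201) and without the GAL1- library of tumor 3 (0.0724), with 0.00446 as the lowest of 14 alternative settings. Without that last library 1 member was called higher, beside 1074 of all genes in place of 1502. Without tumor 3 limma called 0 members and 0 of all genes, with 3 members and 2549 of all genes at an unadjusted p under 0.05. All 12 pan-leukocyte genes were called higher both in PDGFRA- and in PDGFRA+ than in GAL1- cells, with mean log2 fold changes of 3.10 and 2.86. All 10 endothelial genes were called higher in both as well (medians 2 and 2.12), with 7 and 6 of 12 mural and fibroblast genes. The part of these cell types was not tested.

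In PDGFRA- over GAL1+ cells *Anxa3* was the only member called, and it was lower in PDGFRA- cells (log2 fold change −1.58, adjusted p = 0.0436), beside 6.91% of all genes called lower. That call held in 6 of 14 alternative settings, with adjusted p from 0.0142 to 0.18. It was lost without tumor 3 (0.18), tumor 4 (0.0995) or tumor 5 (0.0549). Without the PDGFRA- library of tumor 4 the log2 fold change was −0.86 (adjusted p = 0.104), and limma called 0 members and 1026 of all genes, with 2 members and 4655 of all genes at an unadjusted p under 0.05. Without the GAL1- library of tumor 3 *Anxa3* did not pass either (adjusted p = 0.057), and limma called 0 members and 3198 of all genes, with 4 members and 6429 of all genes at an unadjusted p under 0.05. Without the PDGFRA- library of tumor 5, 3 members were called, beside 32.1% of all genes, a share near that of the members, now with *S100a4* (1.17, adjusted p = 0.0353, up to 0.546 in other settings) and *S100a6* (1.45, adjusted p = 0.0209, up to 0.417) higher in PDGFRA- cells. Of the 12 pan-leukocyte genes 5 were called lower in PDGFRA- than in GAL1+ cells, with a mean log2 fold change of −1.33. Of the microglia genes 7 of 10 were called lower (median −1.8), beside 6.91% of all genes. Called higher were 8 of 8 mature oligodendrocyte genes (median 2.48) and 9 of 10 oligodendrocyte lineage genes (median 1.87), beside 13.2% of all genes. The part of these cell types was not tested.

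Ordered by mean level, *Cd44*, *Anxa2* and *Anxa5* ran from GAL1+ through PDGFRA- and PDGFRA+ to GAL1- cells. For *Cd44* the means were 8.06 ± 0.25, 7.72 ± 0.43, 7.08 ± 0.37 and 6.78 ± 0.20 (SD, n = 3), and no neighbors in that order differed by the test (adjusted p = 0.0746, 0.21 and 0.215). For *Anxa5* they were 7.23 ± 0.25, 6.67 ± 0.67, 5.80 ± 0.55 and 4.77 ± 0.96 (SD, n = 3), and only the last step passed (adjusted p = 0.0995, 0.25 and 0.0186). *S100a11* kept the same order, at 4.08, 3.89, 3.30 and 2.78, with no step passing (adjusted p = 0.658, 0.453 and 0.395). *Anxa3* placed PDGFRA+ (5.63) just above PDGFRA- cells (5.54), and its outer steps both passed. *Vim*, *Anxa1*, *S100a4*, *S100a6* and *S100a10* had their highest mean in PDGFRA- cells, where the library of tumor 4 was the highest.

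Per kilobase of exon (union of GENCODE M21 basic exons), the mean level of *Vim* was 9.24 to 9.57 log2 CPM per kilobase over the populations. The next member was *Anxa2*, with 6.61 for GAL1+, 6.39 for PDGFRA- and 5.73 for PDGFRA+ cells. In GAL1- cells the order changed, with *S100a10* at 5.42 and *S100a6* at 5.41 just above *Anxa2* at 5.34. *Anxa3* moved from 5.73 in GAL1+ cells to 0.71 in GAL1- cells, where it was the lowest member per length.

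The members did not vary as a unit. Over the 12 libraries, which share 3 tumors and 4 sorts, the 45 pairwise Pearson correlations ran from −0.30 to 0.95 with a median of 0.50. *Cd44* and *Anxa5* were the closest pair (r = 0.95), and *Anxa5* and *Anxa2* followed (r = 0.92). *S100a4* and *S100a6* were close to each other (r = 0.82) and not to *Anxa3* (r = −0.03 and −0.30). In the RefSeq order of the S100 genes on chromosome 3 (GRCm38.p6), only *S100a5* lies between *S100a4* and *S100a6*. *S100a10* and *S100a11* lie next to each other in that order, and their r was 0.28.

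Leukocyte genes moved with the same contrast. All 12 pan-leukocyte genes were called higher in GAL1+ than in GAL1- cells, with a mean log2 fold change of 4.44. Their summed level was 2718, 3359 and 3724 CPM in GAL1+ cells, 82.7, 231 and 183 in GAL1- cells, with 624, 1479 and 1384 in the PDGFRA+ and 1091, 685 and 2905 in the PDGFRA- libraries. *Laptm5* had the highest mean CPM over the 12 libraries, and here and for the lists that follow the gene named as most abundant is the one with the highest such mean. None of the 12 was at or under 3 reads in any library. Pearson's r with the mean of these genes, over the 12 libraries, was 0.98 for *Anxa3*, 0.89 for *Anxa5*, 0.83 for *S100a11*, 0.82 for *Cd44* and 0.81 for *Anxa2*. It was 0.53 for *Anxa1*, 0.20 for *S100a10*, 0.12 for *S100a4*, −0.07 for *Vim* and −0.19 for *S100a6*. Some single genes of other kinds had an r about as large in size, with 0.97 for *Anxa3* with *Pecam1*, −0.94 for *Cd44* with *Pdgfra* and 0.89 for *Anxa2* with *Lgals1*. *Vim* had 0.74 with *Gfap*, a gene with 0.01 for *Cd44* and −0.23 for *Anxa3*. Each pair was picked as the largest for its member among the single genes compared. The 5 members with the highest r to the leukocyte mean were also the 5 called without overlap between GAL1+ and GAL1- cells. That mean was highest in GAL1+ (7.4) and lowest in GAL1- cells (2.97), so the match is not independent of the calls. In the PDGFRA- library of tumor 4 the leukocyte mean (5.17), *Anxa3* (4.35) and *S100a11* (2.99) were each at their lowest among the PDGFRA- libraries. *Cd44* (7.95), *Anxa2* (7.11) and *Anxa5* (7.03) were not at their lowest there. These are values of 1 library, which also stood apart in other members. The part of leukocyte RNA in these results was not tested.

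**Figure D3:**
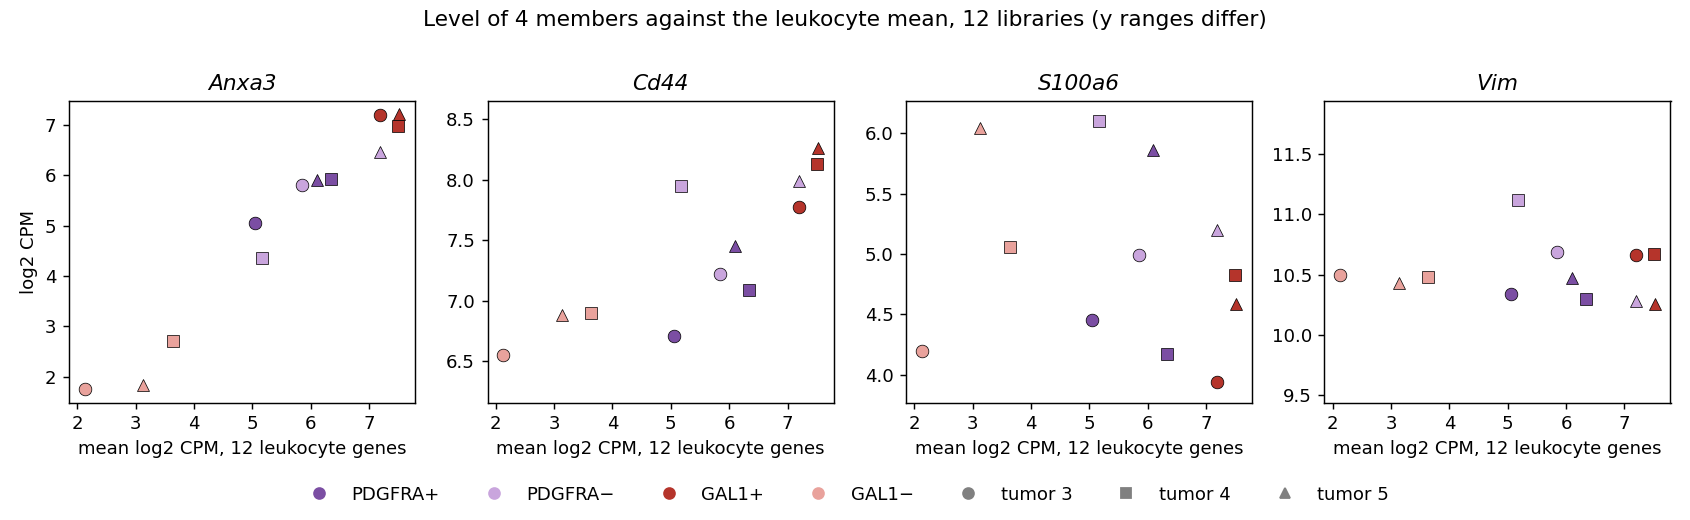
Level of *Anxa3*, *Cd44*, *S100a6* and *Vim* (y axis, log2 CPM, ranges differ) against the mean log2 CPM of 12 pan-leukocyte genes (x axis) in the 12 libraries. Color gives the population and shape the tumor. *Anxa3* is higher where the leukocyte mean is higher (r = 0.98), and *Vim* has an r of −0.07.

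Markers of other cells were read the same way for GAL1+ over GAL1- cells. All 10 microglia genes were called higher, with a summed level of 1832, 2520 and 2246 CPM in GAL1+ cells, 83.0, 153 and 100 in GAL1- cells, with 429, 1151 and 822 in the PDGFRA+ and 588, 327 and 1269 in the PDGFRA- libraries. All 11 monocyte and macrophage genes were called higher (most abundant, *Lyz2*), with 1960, 1557 and 1985 CPM in GAL1+ cells, 20.3, 36.7 and 60.9 in GAL1- cells, with 381, 604 and 744 in the PDGFRA+ and 713, 321 and 1598 in the PDGFRA- libraries. In both lists the 3 GAL1- libraries were the lowest. The neutrophil list had values for 5 of its 10 genes, with none for *Ly6g*, *Mpo*, *Elane*, *Camp* and *Retnlg*. Of these 5 genes 3 were called higher, 2 of which (*Csf3r* and *Cxcr2*) the study had picked out for neutrophil chemotaxis. *Ltf* and *Ngp* were not called. *S100a8* and *S100a9*, by which the study also named neutrophils, had means of 1.6 and 3.58 log2 CPM in GAL1+ cells and 1.63 and 3.26 in GAL1- cells. Of the T and NK cell genes (most abundant, *Cd4*) 2 of 8 were called higher, a share no larger than the 28.9% over all genes, and 5 of the 8 were lower on average, with a median of −0.07. The neutrophil genes (most abundant, *Csf3r*) summed to 86.0, 173 and 159 CPM in GAL1+ and 6.92, 14.5 and 27.6 in GAL1- cells, with 19.8, 74.9 and 71.4 in PDGFRA+ and 35.2, 34.6 and 136 in PDGFRA- libraries. *Csf3r* made up most of that sum: in the GAL1+ library of tumor 3 it stood at 6.29 log2 CPM, beside 6.43 for the whole list.

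Vascular and connective tissue genes also separated the GAL1 sort. All 10 endothelial genes were called higher in GAL1+ cells (most abundant, *Flt1*), with 353, 396 and 321 CPM in GAL1+ cells, 64.4, 88.7 and 40.7 in GAL1- cells, with 256, 333 and 159 in the PDGFRA+ and 250, 223 and 253 in the PDGFRA- libraries. Of the mural and fibroblast genes 11 of 12 were called higher (most abundant, *Col3a1*), with 831, 900 and 502 CPM in GAL1+ cells, 114, 347 and 128 in GAL1- cells, with 721, 560 and 321 in the PDGFRA+ and 514, 922 and 447 in the PDGFRA- libraries. Called lower in GAL1+ cells were all 10 oligodendrocyte lineage genes, 7 of 8 mature oligodendrocyte genes and 4 of 9 astrocyte genes, beside 29.3% of all genes. Of the neuron genes 2 of 7 were called lower, a share near that over all genes, and 3 of the 7 were higher on average. Several of the oligodendrocyte lineage genes were chosen by the study on these libraries, so their direction is not independent. These lineage genes (most abundant, *Ptprz1*) summed to 1701, 991 and 569 CPM in GAL1+ and 5392, 4623 and 5262 in GAL1- cells, with 5049, 3570 and 3559 in PDGFRA+ and 3764, 3167 and 1414 in PDGFRA- libraries. The mature oligodendrocyte genes summed to 698, 1011 and 948 CPM in PDGFRA- cells, above 334, 259 and 317 in PDGFRA+ cells, 205, 293 and 164 in GAL1+ cells and 342, 582 and 501 in GAL1- cells. The part of these cell types in the members' levels was not tested.

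Relatives of the members were followed by family, and their counts stand beside 28.9% of all genes called higher and 29.3% called lower in this comparison. Of the other annexins with values, 4 of 5 were called higher in GAL1+ than in GAL1- cells, led by *Anxa4* (log2 fold change 3.68, adjusted p = 4.55e-05) and *Anxa11* (2.92, adjusted p = 6.16e-05), and *Anxa6* was lower (−0.32, adjusted p = 0.0218). The other S100 genes went the opposite way, with 5 of 7 called lower and none higher, among them *S100a16* (−2.03), *S100a1* (−1.89) and *S100b* (−1.35), the last a gene of glia. Of the other intermediate filament genes 3 of 11 were called higher, a share near that over all genes, among them *Des* (1.34) and *Synm* (0.98), and 5 lower, among them *Ina* (−2.67) and *Nefm* (−2.18), which are neuronal. The medians of these lists were 1.64, −1.35 and −0.35, beside −0.03 over all genes.

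Genes that work with CD44 and the annexins are also given beside the 28.9% of all genes called higher and 29.3% called lower. Of the CD44 ligands and cortex linkers 5 of 12 were called higher in GAL1+ than in GAL1- cells and 5 lower. Higher were *Spp1*, which encodes the ligand osteopontin (4.70, adjusted p = 0.00135), and *Ezr*, which encodes the actin linker ezrin (2.24, adjusted p = 3.93e-05). Lower were *Ank3* (−2.29) and *Nf2* (−0.50). Of the annexin and S100A10 partners 6 of 9 were called higher and 1 lower, with a median of 3.11. These included the plasminogen activator gene *Plau* (4.85), its receptor gene *Plaur* (3.31) and *Myof* (3.12), while *Kcnk3* was lower (−2.26).

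Among 41 other genes of the mesenchymal-like glioma state with values, 26 were called higher in GAL1+ than in GAL1- cells and 4 lower, with a median of 0.99, beside 28.9% and 29.3% of all genes and a median of −0.03. The highest were *C3* (5.42), *Apoe* (5.18), *Tgfbi* (4.88) and *Lgals3* (4.55), which myeloid cells also use. The lower genes were *A2m* (−2.33), *Serpina3n* (−1.37), *Gfpt2* (−1.04) and *Cav1*. Of 13 transcription factors tied to that state 7 were called higher, led by *Cebpb* (3.86) and *Nfkb1* (2.30), and 1 lower, *Cebpd* (−1.08). Of 6 epithelial to mesenchymal transition factors and cadherins 3 were called higher, *Twist1* (2.70, at 3 to 9 reads in the GAL1- libraries), *Cdh1*, which encodes the epithelial cadherin (1.85, adjusted p = 0.0091), and *Zeb2* (1.23), and 2 lower, *Cdh2* (−2.01) and *Zeb1* (−1.87).

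The genes most like the mean of the 10 members over the 12 libraries, of 10184 candidates, were *Ahr* (Pearson r = 0.971), *Agtrap* (0.969), *Cast* (0.964), *Rbms1* (0.961), *Fgd4* (0.958), *Crip1* (0.956), *Pi4k2b* (0.953), *Nr4a2* (0.950), *Capn1* (0.948) and *Ecm1* (0.947). *Ahr* stood at 5.65, 6.54 and 6.53 log2 CPM in GAL1+ cells, at 2.76, 4.54 and 4.74 in GAL1- cells, with 3.90, 5.05 and 5.36 in the PDGFRA+ and 5.19, 6.61 and 6.93 in the PDGFRA- libraries. Like *Cd44*, it was lowest in tumor 3 within each population. For single members the most alike genes were *Bcl2a1b* for *Anxa3* (0.996), *Rbms1* for *Anxa5* (0.994), *Mapk3* for *Cd44* (0.981), *Plscr1* for *S100a11* (0.965), *Itpr3* for *Anxa1* (0.950) and *Ecm1* for *Anxa2* (0.947). Lower values were reached for *S100a4* with *Tppp3* (0.938), *S100a10* with *Batf2* (0.904), *S100a6* with *Nr1d1* (0.900) and *Vim* with *Elmo2* (0.876).

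Promoter sequences from RefSeq (GRCm38.p6) were matched for 8 of the 10 members, all but *Anxa3* and *S100a10*, and the 250 bases before each start were searched on both strands for 6 short motifs. The AP-1 motif TGANTCA was found in *S100a11* and *Anxa2*, and in 6.75% of 32851 promoters. TATAAA was found in *Vim*, *S100a4*, *Anxa2* and *Anxa1* (12.4% of promoters), and GGAATG (TEAD, 12.6%) and TTGCNNAA (C/EBP, 9.56%) in *Anxa1*. TTCNNNGAA (STAT, 7.02%) and GGGANTTCC (NF-kB, 1.43%) were in none of the 8. The motifs were chosen after the members' values were seen, and a match describes letters, not binding. The promoters with an AP-1 match are shown because both genes were called higher in GAL1+ cells without overlap. *Cd44* and *Anxa5*, also called higher without overlap, had no AP-1 match in their windows. The *S100a11* window is chr3:93520246-93520495 and the *Anxa2* window chr9:69453433-69453682, both on the + strand, with the AP-1 letters in capitals.
S100a11: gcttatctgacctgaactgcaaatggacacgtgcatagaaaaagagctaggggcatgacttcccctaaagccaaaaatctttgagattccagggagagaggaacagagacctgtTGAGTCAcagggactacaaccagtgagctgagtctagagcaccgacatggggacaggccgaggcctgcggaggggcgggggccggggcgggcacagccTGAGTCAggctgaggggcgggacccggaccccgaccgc
Anxa2: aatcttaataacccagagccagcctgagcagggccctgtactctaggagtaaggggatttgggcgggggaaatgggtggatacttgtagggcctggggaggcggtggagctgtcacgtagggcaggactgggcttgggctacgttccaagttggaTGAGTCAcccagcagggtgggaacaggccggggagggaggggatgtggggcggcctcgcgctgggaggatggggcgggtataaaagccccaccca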

How the data were processed

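The deposited values are log2 CPM, made by the authors with fastp, STAR, featureCounts and limma's voom on mm39, from SMARTer Stranded Total RNAseq v3 Pico libraries. Read numbers were worked back from each library's lowest value with voom's offset of 0.5, and 41.3 to 59.2% of them came out within 0.01 of a whole number. The authors counted reads that map to several places as fractions. limma 3.58.1 (R 4.3.3) was fitted to all 18180 genes with a term per population and a block per tumor, and a trended moderated two-sided test. It was tested on simulated data. p-values were adjusted by Benjamini-Hochberg over all genes in each of 6 comparisons, and a gene was called at an adjusted p under 0.05. The pairing was checked: libraries of the same tumor, centred on their population, had a mean r of 0.486 (18 pairs), and libraries of different tumors −0.306 (48 pairs). Centring on a mean of 3 libraries makes the second value negative whenever the first is positive, so it is not a separate check.

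Genes were named by rule: every member, and from each list up to 4 genes per direction called in GAL1+ over GAL1- cells with the same direction in 3 of 3 tumors. Genes most like the members had a mean of at least 3 log2 CPM. The members and lists were chosen with earlier results of these data known. Alternatives were no tumor block, only the libraries of the populations compared, no trend, voom weights, a pseudocount of 1 CPM, a filter (above 1 in at least 3 libraries), quantile normalization, centring on the library median, and leaving out each tumor. Leaving out single libraries was chosen after seeing the data. Figures were drawn with matplotlib 3.10.9.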

Additional observations from a re-analysis of the deposited data

How the results depend on the processing

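In GAL1+ over GAL1- cells, *Cd44*, *Anxa2*, *Anxa3*, *Anxa5* and *S100a11* were called in 14 of 14 alternative settings and *Anxa1* in 6. Members called in PDGFRA- over GAL1+ cells were 1, against 0 without the tumor block and 2 with only the populations compared. They were 0 without a trend, 0 under quantile normalization and 3 when centred on the median. Of all genes 3652 were called, against 725, 1893, 2693, 3137 and 4098 in those settings, in that order. Calls lower went from 1257 to 2178 when centred. In PDGFRA+ over GAL1- cells the members called were 2, against 1 when the block was dropped. For PDGFRA+ over GAL1+ cells the members called were 4, against 6 when centred on the median, with *S100a10* (adjusted p = 0.0283) and *S100a11* added. Of all genes 4408 were called lower when centred, in place of 3097. Quantile normalization turned *Vim* to −0.72 (GAL1+ over GAL1-), 0.35 (PDGFRA+ over GAL1+) and −0.19 (PDGFRA- over GAL1-), and median centring turned *Anxa1* to −0.08 (PDGFRA- over GAL1+). Leaving out a tumor or a library (the single libraries chosen after seeing the data) gave 2 to 5 members called in PDGFRA+ over GAL1+, 0 to 3 in PDGFRA- over GAL1+ and 0 to 2 in PDGFRA+ over GAL1- cells. Calls among all genes moved in the same settings, from 2110 to 7887, from 0 to 5837 and from 0 to 1920 in these comparisons, and from 920 to 6021 in PDGFRA- over GAL1- cells. Member medians with a tumor or library left out ran from −0.16 to 0.09 in PDGFRA- over GAL1+ and from 0.06 to 0.43 in PDGFRA+ over GAL1- cells. Signs that turned when libraries were left out were, in GAL1+ over GAL1-, *S100a10* (−0.01 to 0.27), *Vim* (−0.01 to 0.18) and *S100a4* (−0.25 to 0.21). In PDGFRA+ over PDGFRA- they were *Anxa3* (−0.66 to 0.53) and *S100a6* (−1.23 to 0.06), and in PDGFRA+ over GAL1+ *S100a6* (−0.07 to 0.90). In PDGFRA- over GAL1+ they were *Vim* (−0.03 to 0.34), *Anxa1* (−0.33 to 0.53) and *S100a11* (−0.48 to 0.23). In PDGFRA+ over GAL1- they were *Anxa1* (−0.18 to 1.10) and *S100a6* (−0.53 to 0.04), and in PDGFRA- over GAL1- *S100a6* (−0.06 to 0.92). Among all genes, calls fell without the tumor block from 6900 to 3154 (PDGFRA+ over GAL1+), 3652 to 725 (PDGFRA- over GAL1+), 1504 to 612 (PDGFRA+ over GAL1-) and 4200 to 1444 (PDGFRA- over GAL1-). With only the populations compared they were 1893 (PDGFRA- over GAL1+), 1328 (PDGFRA- over GAL1-) and 3386 (PDGFRA+ over GAL1-), the last with 1001 called lower in place of 2. Median centring moved the all-gene median to −0.15 (PDGFRA+ over GAL1+), −0.11 (PDGFRA- over GAL1+) and −0.13 (PDGFRA+ over GAL1-), and quantile normalization moved it to −0.15 (PDGFRA+ over GAL1-) and −0.12 (PDGFRA- over GAL1-). Relative to it, the members' median in PDGFRA+ over GAL1+ cells was −0.83 centred and −0.69 under quantile normalization. The cause was not tested. With 3 libraries per population and the GAL1- libraries deepest, small differences may not be detectable.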
